A study of Mus musculus with 6 samples.

Results

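Genes of retinoid uptake and metabolism were examined in the distal jejunum of mice with Hnf4a deleted in the intestinal epithelium. The set held 9 genes of the 18193 that the arrays measured with a probe set of 1 gene symbol, namely Rdh7, Rbp2, Lrat, Bco1, Aldh1a1, Aldh1a2, Adh1, Dhrs3 and Isx. Each gene was read from 1 probe set, chosen by its mean log2 signal over all 6 arrays where a gene had several. That mean weights both groups equally, but a fall in the mutants lowers it. The choice can therefore favour a probe set with a smaller fall, as it did for Ttr, a gene outside the set. The genes themselves were listed with earlier results of these arrays known, so their counts are a description and not independent evidence of a pathway-wide change.

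Total RNA of 6 littermates was hybridised to Affymetrix arrays, 1 animal per array. There were 3 controls and 3 mutants, all killed at 7 months of age under ketamine and xylazine and kept free of pathogens. In the mutants Hnf4a was deleted through a Cre transgene driven by a Villin promoter, which is active in the intestinal epithelium. All 6 carry the same strain label, B6.129X1(FVB)-Hnf4atm1.1Gonz/J, and the labels do not say whether the controls carried the Cre transgene. Hnf4a encodes a nuclear receptor that controls metabolic genes of liver and gut. Biopsies of the whole jejunal wall were extracted, so stroma, muscle and immune cells contributed RNA, and fewer cells of a type cannot be told apart from less RNA per cell. The values are the authors' deposited log2 signals, and a log2 difference of 1 is a 2-fold difference.

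Dietary vitamin A reaches the enterocyte as retinol, freed from retinyl esters in the lumen, or as carotenoids. Inside the cell, beta-carotene is cleaved to retinal, and retinol is bound by a cellular carrier, esterified and exported in chylomicrons. A smaller share is oxidised, first reversibly to retinal and then irreversibly to retinoic acid, the ligand of nuclear receptors that shape epithelial and immune gene expression in the gut.

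The arrays were alike in their overall signal. Array medians lay between 3.93 and 3.98, and rank correlations between arrays between 0.980 and 0.987. The 3′ minus 5′ log2 signal of control probe sets, a measure of RNA quality, was highest in mutant 1. It ran from 0.39 to 0.73 for actin and from 0.29 to 0.71 for Gapdh. Hnf4a read 11.82, 11.76 and 11.57 in controls and 8.83, 8.83 and 9.82 in mutants, so the deleted gene was lower in every mutant (5.88-fold, limma's adjusted p = 0.00756, and 0.0506 without control 2). Its other probe sets differed by -3.06, -2.64 and -1.17 (limma's adjusted p = 0.0162, 0.0133 and 0.0921 over all probe sets). On the brightest probe set every array stayed at least 4.87 above its median, so Hnf4a signal remained in the mutants. The source of that signal was not tested. Absorptive epithelial markers, 7 of 8 measured, averaged 12.6 to 12.7 in controls and 12.5 to 12.7 in mutants, and none of them passed the test. Other marker lists set some arrays apart. Pancreatic acinar markers, 4 of 5 measured, averaged 8.11 in control 3 and at most 4.04 elsewhere. Fat markers, 3 of 5 measured, averaged 8.18 in mutant 2 and at most 6.78 elsewhere, and the Y-linked genes, 3 of 4 measured, averaged 5.54 in control 1, 5.62 in mutant 3 and at most 2.70 elsewhere.

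Some markers of gut position also differed between arrays. Fabp6, the ileal bile acid binding protein gene, read 9.15, 6.67 and 3.37 in controls 1, 2 and 3 and 9.57, 10.03 and 9.80 in mutants 1, 2 and 3. Slc10a2, the ileal bile acid carrier gene, read 3.31, 2.93 and 3.26 in controls and 3.99, 4.40 and 6.98 in mutants. The mean of the 5 ileum and colon markers lay between 3.30 and 4.47 in controls and between 4.81 and 5.32 in mutants, with Car1, Aqp8 and Hoxb13 under the array median on all 6 arrays. The mean of the 5 proximal markers ranged from 5.05 to 5.50 in controls and from 4.85 to 5.24 in mutants, and 1 of them, Onecut2, fell by 0.93 from readings near the array median (limma's adjusted p = 0.0240). Many genes of retinoid metabolism differ along the small intestine, and the part of gut position in the differences between the groups was not tested. A fit with the ileum and colon mean as a covariate is given below, but that mean does not overlap between the groups.

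Hnf4a binds DNA, so promoter windows are shown for the 4 genes whose groups did not overlap (Rdh7, Lrat, Aldh1a1 and Bco1), and for Rbp2, whose groups overlapped, as the gene with the most matches to the HNF4 letters. Each runs 5′ to 3′ along the gene from 250 bases before to 50 after an annotated start, from RefSeq on GRCm38.p6, and all 9 genes matched a window, 13 in all. Capitals mark every match, on either strand, to the letters searched. Rdh7 has 2 annotated starts, at chr10:127889198-127889497 and chr10:127888684-127888983 on the minus strand, and the Lrat window is chr3:82903925-82904224 on the same strand. On the plus strand, Aldh1a1 has windows at chr19:20492333-20492632 and chr19:20601718-20602017, Bco1 lies at chr8:117095615-117095914 and Rbp2 at chr9:98490287-98490586.
Rdh7 outer start: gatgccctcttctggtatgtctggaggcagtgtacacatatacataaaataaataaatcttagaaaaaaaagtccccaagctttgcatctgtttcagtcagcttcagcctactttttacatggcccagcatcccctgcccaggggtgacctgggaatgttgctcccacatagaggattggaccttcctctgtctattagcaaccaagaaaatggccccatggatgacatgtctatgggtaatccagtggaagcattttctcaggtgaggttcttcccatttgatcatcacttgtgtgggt
Rdh7 inner start: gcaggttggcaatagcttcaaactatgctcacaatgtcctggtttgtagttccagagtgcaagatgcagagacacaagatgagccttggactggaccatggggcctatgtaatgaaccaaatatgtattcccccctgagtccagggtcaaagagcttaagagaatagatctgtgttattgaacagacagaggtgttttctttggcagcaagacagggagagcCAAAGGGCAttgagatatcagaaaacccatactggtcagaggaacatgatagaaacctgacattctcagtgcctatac
Lrat: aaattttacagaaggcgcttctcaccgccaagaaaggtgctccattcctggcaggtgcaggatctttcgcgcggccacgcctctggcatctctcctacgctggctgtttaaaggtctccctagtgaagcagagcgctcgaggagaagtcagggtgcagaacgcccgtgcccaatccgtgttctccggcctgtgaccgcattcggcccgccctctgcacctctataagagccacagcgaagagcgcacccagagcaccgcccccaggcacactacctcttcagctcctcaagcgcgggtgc
Aldh1a1 outer start: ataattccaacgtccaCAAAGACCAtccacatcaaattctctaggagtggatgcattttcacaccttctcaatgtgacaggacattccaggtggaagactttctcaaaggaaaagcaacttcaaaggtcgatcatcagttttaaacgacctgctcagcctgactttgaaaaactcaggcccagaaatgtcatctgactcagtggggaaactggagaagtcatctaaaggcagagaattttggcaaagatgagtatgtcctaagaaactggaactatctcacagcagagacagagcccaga
Aldh1a1 inner start: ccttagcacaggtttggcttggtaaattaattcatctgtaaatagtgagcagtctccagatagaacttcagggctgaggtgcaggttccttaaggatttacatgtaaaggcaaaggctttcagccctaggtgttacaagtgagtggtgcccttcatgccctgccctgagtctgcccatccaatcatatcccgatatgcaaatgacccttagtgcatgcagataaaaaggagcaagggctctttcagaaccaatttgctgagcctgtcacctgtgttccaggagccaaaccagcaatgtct
Bco1: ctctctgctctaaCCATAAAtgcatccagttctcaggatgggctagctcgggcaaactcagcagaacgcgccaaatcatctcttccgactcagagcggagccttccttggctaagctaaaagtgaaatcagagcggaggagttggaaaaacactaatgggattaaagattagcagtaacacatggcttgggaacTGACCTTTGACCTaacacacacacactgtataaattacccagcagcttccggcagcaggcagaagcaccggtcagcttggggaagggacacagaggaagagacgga
Rbp2: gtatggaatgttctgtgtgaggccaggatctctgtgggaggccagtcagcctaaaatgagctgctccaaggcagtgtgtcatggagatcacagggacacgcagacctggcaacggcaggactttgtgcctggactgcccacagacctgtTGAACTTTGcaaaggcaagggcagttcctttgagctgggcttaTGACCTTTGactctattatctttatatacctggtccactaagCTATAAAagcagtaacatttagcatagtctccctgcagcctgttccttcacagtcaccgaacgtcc

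The letters searched were CAAAGTCCA, the core that HNF4 receptors prefer, the looser CAAAGNNCA that includes it, GTTAATNA for HNF1, TTTATNG for CDX factors, and AGGTCA repeated after a spacer of 1 base or of 5 bases. CAAAGTCCA was in none of the member windows and in 0.475% of all 32851 windows of this length. CAAAGNNCA was in 6 of the 13 member windows and in 6.36% of all windows. The 6 belong to 5 genes (Rdh7, Rbp2, Bco1, Aldh1a1 and Dhrs3), and 2 of them are overlapping Dhrs3 windows that share 1 match. In the Rdh7 window of the inner start it lay at positions -28 to -20 from the start, as CAAAGGGCA, and the outer Rdh7 window and the Lrat window held no match. Rbp2 held it at 2 places on the antisense strand, printed as TGAACTTTG at positions -101 to -93 and as TGACCTTTG at -58 to -50. Bco1 held it once, also as TGACCTTTG, at positions -56 to -48. In Bco1 the match overlapped an AGGTCA repeat with a spacer of 1 base, present in 0.0396% of all windows. The CDX letters were in 3 of the 13 windows, 1 each of Rbp2, Bco1 and Dhrs3, and in 10.9% of all windows, while the HNF1 letters and the repeat with a spacer of 5 were in none of the 13, against 2.54% and 0.00913% of all windows. A match is a description of letters and not a bound site.

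Of the 9 genes, Rdh7 fell and none rose in the fit over all genes, where 0.528% of 18193 genes were called, 0.33% lower and 0.198% higher (limma, adjusted p under 0.05). At an unadjusted p under 0.05 in the same test there were 4 lower and 1 higher, beside 6.85% and 5.24% of all genes. All mutants lay below all controls in 3 genes (Rdh7, Lrat and Aldh1a1) and above them in 1 (Bco1). Over all genes these shares were 10.2% and 6.93%, and 17.1% in either direction. The groups overlapped in Rbp2, Aldh1a2, Adh1, Dhrs3 and Isx. The median difference of the 9 genes was -0.26, beside -0.01 over all genes, and 7 of them had a lower mean in the mutants.

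**Figure D1:**
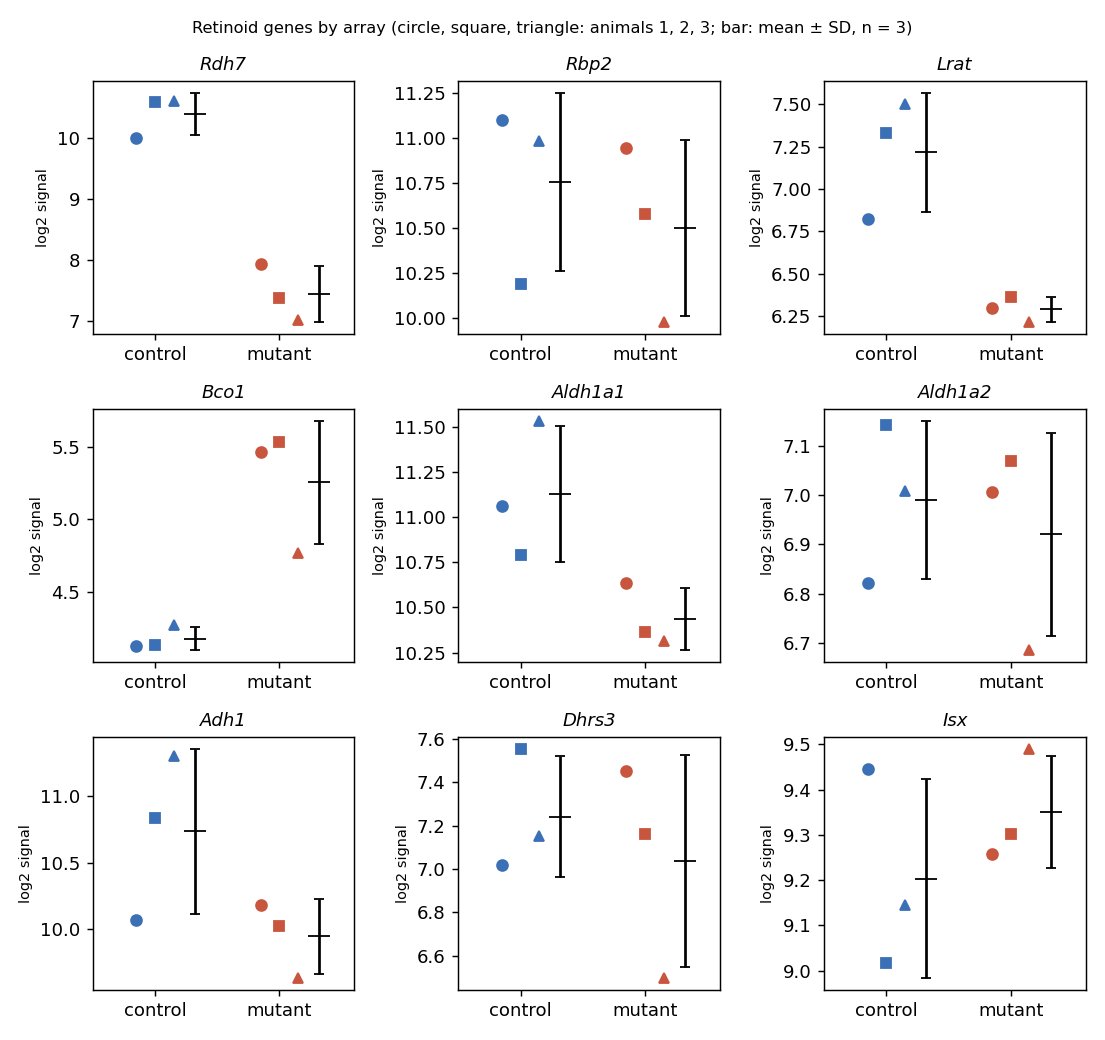
Log2 signal of the 9 genes (vertical axes, each on its own range) by group, with controls in blue and mutants in orange, animals 1, 2 and 3 as circle, square and triangle, and mean ± SD (n = 3) as the bar beside them. Rdh7 separates by more than 2 log2 units, Lrat, Aldh1a1 and Bco1 separate by less, and the other genes overlap.

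Carotenoid cleavage and its regulator came first in the pathway. Bco1, the oxygenase that splits beta-carotene into retinal, read 4.13, 4.14 and 4.27 in controls and 5.46, 5.54 and 4.77 in mutants. Every mutant lay above every control, with mutant 3 the nearest to them. The difference was 1.07 ± 0.20 SE on the log2 scale, 2.11-fold (95% interval 0.62 to 1.53, limma's adjusted p = 0.0740), and it did not pass the test. The lowest reading lay 0.16 above the median of its array, a level near background, which leaves the fold imprecise. Without mutant 3 the difference was 1.32 and passed (limma's adjusted p = 0.00548), as it did with array weights (limma's adjusted p = 0.0318) and with Y-linked expression as a covariate (limma's adjusted p = 0.0290). Over all alternatives its adjusted p in limma ran from 0.00548 to 0.985.

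Isx, an intestine-specific homeobox factor known to repress Bco1 and the carotenoid receptor gene Scarb1, read 9.45, 9.02 and 9.15 in controls and 9.26, 9.30 and 9.49 in mutants. The groups overlapped, and control 1 and mutant 3 were the highest of their groups. The difference was 0.15 ± 0.14 SE (95% interval -0.17 to 0.46, limma's adjusted p = 0.747), an interval that leaves out a 2-fold change either way. Scarb1 differed by 0.06 ± 0.15 SE (limma's adjusted p = 0.927), and its sign turned under some alternatives, for example to -0.11 without mutant 2. Bco2, which cleaves carotenoids at another bond, read 7.06, 7.13 and 7.84 in controls and 6.50, 6.98 and 6.28 in mutants, a difference of -0.76 ± 0.24 SE the other way from Bco1 (limma's adjusted p = 0.266). Among the 4 measured genes of carotenoid uptake and cleavage limma called 0. At an unadjusted p under 0.05 there were 3, all lower, beside 6.85% of all genes lower and 5.24% higher. They included Npc1l1, the sterol importer gene, at -0.46 ± 0.11 SE and the fatty acid receptor gene Cd36 at -0.80 ± 0.28 SE (limma's adjusted p = 0.299). The Cd36 groups overlapped, with control 1 at 8.16 and mutant 2 at 8.36. Mutant 2 also had the highest mean of fat markers, 8.18, and the part of fat in the Cd36 readings was not tested.

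Retinol is bound and esterified inside the enterocyte. Rbp2, the cellular retinol carrier of the enterocyte, read 11.10, 10.19 and 10.98 in controls and 10.94, 10.57 and 9.97 in mutants. The lowest control lay below all but 1 mutant. The difference was -0.26 ± 0.30 SE (95% interval -0.94 to 0.43, limma's adjusted p = 0.808), and without mutant 3 it was 0.00, so its sign rested on that animal.

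Lrat, the acyltransferase that turns retinol into retinyl esters, read 6.82, 7.33 and 7.50 in controls and 6.30, 6.36 and 6.22 in mutants. The mutants lay close together, with an SD of 0.07 against 0.35 in controls (n = 3 each), and the gap between the groups was 0.46. The difference was -0.93 ± 0.17 SE, 1.90-fold lower (95% interval -1.32 to -0.53, limma's adjusted p = 0.0747), short of the threshold. The second Lrat probe set read 5.15, 5.31 and 5.27 in controls and 4.86, 4.34 and 4.28 in mutants, a difference of -0.75 ± 0.16 SE with no overlap either. Without control 1 the difference was -1.12 and passed (limma's adjusted p = 0.0249), as it did with the Y-linked covariate (limma's adjusted p = 0.0326), and over all alternatives the adjusted p in limma ran from 0.0249 to 0.999. Dgat1, an enzyme of triglyceride synthesis that can also esterify retinol, read 11.70, 11.65 and 11.60 in controls and 11.25, 11.23 and 11.17 in mutants, at -0.44 ± 0.09 SE (limma's adjusted p = 0.105).

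Oxidation of retinol to retinal held the largest difference of the set. Rdh7, a short-chain dehydrogenase of the retinol and hydroxysteroid oxidising family, read 9.99, 10.58 and 10.61 in controls and 7.92, 7.38 and 7.01 in mutants. The highest mutant lay 2.07 below the lowest control, while controls spanned 0.62 and mutants 0.92. Rdh7 fell by 2.96 ± 0.25 SE on the log2 scale, 7.77-fold (95% interval -3.54 to -2.38, limma's adjusted p = 0.00533), and ranked 8 of all genes by p. All 6 readings stayed more than 3 log2 units above their array's median probe set. With any 1 array left out it passed (differences -3.20 to -2.74, limma's adjusted p up to 0.0431). Flooring the values at the 20th percentile ended the call (limma's adjusted p = 0.102), and so did leaving the variance unmoderated (adjusted p = 0.262). Dropping both control 3 and mutant 2 also ended it, at a difference of -2.82 (limma's adjusted p = 0.198). Adding the ileum and colon marker mean as a covariate gave -2.19, not called (limma's adjusted p = 0.671). That mean was at most 4.47 in controls and at least 4.81 in mutants, so this fit cannot tell gut position from group.

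Adh1, a cytosolic alcohol dehydrogenase that also oxidises retinol, read 10.07, 10.84 and 11.30 in controls and 10.18, 10.03 and 9.63 in mutants. The groups overlapped because control 1 lay among the mutants. The difference was -0.79 ± 0.29 SE (95% interval -1.46 to -0.12, limma's adjusted p = 0.329) and -0.51 without control 3. With the ileum and colon markers as a covariate it turned to 0.36. Dhrs3, which reduces retinal back to retinol and is itself induced by retinoic acid, read 7.02, 7.56 and 7.15 in controls and 7.45, 7.16 and 6.50 in mutants. Only mutant 3 lay below the controls. The difference was -0.20 ± 0.25 SE (95% interval -0.77 to 0.36, limma's adjusted p = 0.818), and it was 0.07 without mutant 3.

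Oxidation of retinal to retinoic acid is carried out by the retinaldehyde dehydrogenases. Aldh1a1, a form found in epithelium, read 11.06, 10.79 and 11.53 in controls and 10.63, 10.36 and 10.31 in mutants. The groups did not overlap, but the gap between them, 0.16, was smaller than the range within either. The difference was -0.69 ± 0.19 SE, 1.62-fold lower (95% interval -1.13 to -0.25, limma's adjusted p = 0.194). Aldh1a2, known from stromal, mesothelial and dendritic cells of the gut, read 6.82, 7.14 and 7.01 in controls and 7.01, 7.07 and 6.69 in mutants. Its groups overlapped, with a difference of -0.07 ± 0.14 SE (95% interval -0.39 to 0.25, limma's adjusted p = 0.899) that turned positive without control 2 (0.01) or mutant 3 (0.05). Markers of dendritic cells and macrophages, 7 of 7 measured, averaged 6.22 to 6.41 in controls and 6.37 to 6.53 in mutants, with Cd209a under the array median throughout. Those of mesothelium, 4 of 4 measured, averaged 3.49 to 4.41 and 3.58 to 3.83, with Msln and Wt1 under it. Control 2 alone gave the 4.41, with at most 3.83 elsewhere, and it also held the highest Aldh1a2 reading, 7.14. The part of mesothelium in that reading was not tested.

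**Figure D2:**
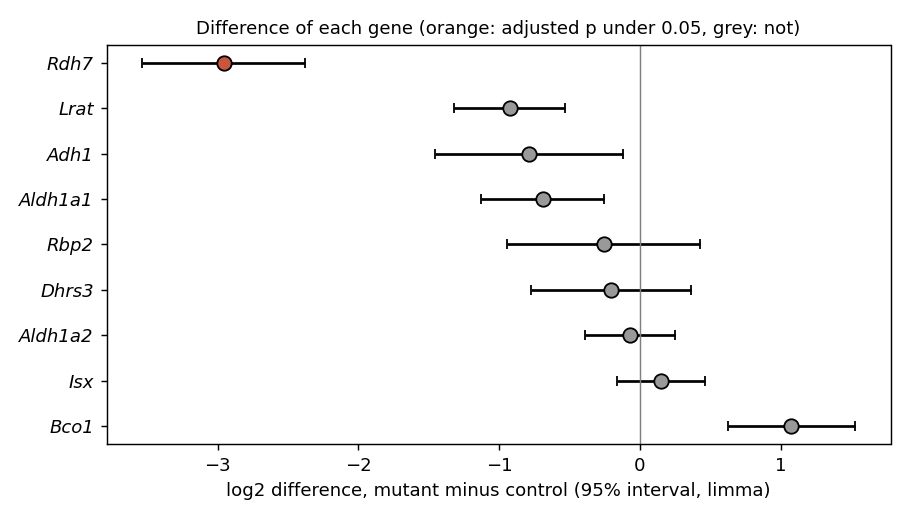
Log2 difference, mutant minus control, of the 9 genes (horizontal axis) with 95% intervals from limma, n = 3 per group. Rdh7 at -2.96, in orange, is the gene with an adjusted p under 0.05. Intervals of Lrat, Adh1, Aldh1a1 and Bco1 leave out 0, and those of Rbp2, Dhrs3, Aldh1a2 and Isx include it.

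Single animals moved several genes together. Mutant 3 was the lowest mutant in 8 of the 9 genes, all but Isx, while over all genes it was the lowest mutant in 35%. It also held the most Hnf4a signal of the mutants, 9.82, and the highest Slc10a2. On the Hnf4a probe set with the smallest difference, -1.17, it was instead the lowest mutant, at 6.03. Control 1 was the lowest control in 6 of the 9 genes, against 34.6% of all genes, and control 3 in none, against 32.1%. Control 1 and mutant 3 are also the 2 arrays with Y-linked signal (5.54 and 5.62, at most 2.70 elsewhere). By these genes the 2 animals were male and the others female. The part of sex in these shifts was not tested beyond the Y-linked covariate fit, which left Rdh7 at -2.96. Control 1 had the Fabp6 reading nearest to the mutants, 9.15 against 9.57 to 10.03, while its Slc10a2 of 3.31 lay below theirs of 3.99 to 6.98 and its ileum and colon mean of 4.47 below theirs of 4.81 to 5.32. On that array Rdh7 read 9.99, Lrat 6.82 and Adh1 10.07, each the lowest control. Aldh1a1 at 11.06 lay between the other controls, and Rbp2 at 11.10 and Isx at 9.45 were the highest controls. The part of gut position was not tested. The ileum and colon covariate was chosen after the data were seen, and its values did not overlap between the groups. A fit with it therefore cannot separate gut position from group. That fit left Rdh7 at -2.19 (limma's adjusted p = 0.671), Lrat at -0.37, Aldh1a1 at -0.20 and Bco1 at 1.48, called none of the 9 genes and 2 genes in all.

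**Figure D3:**
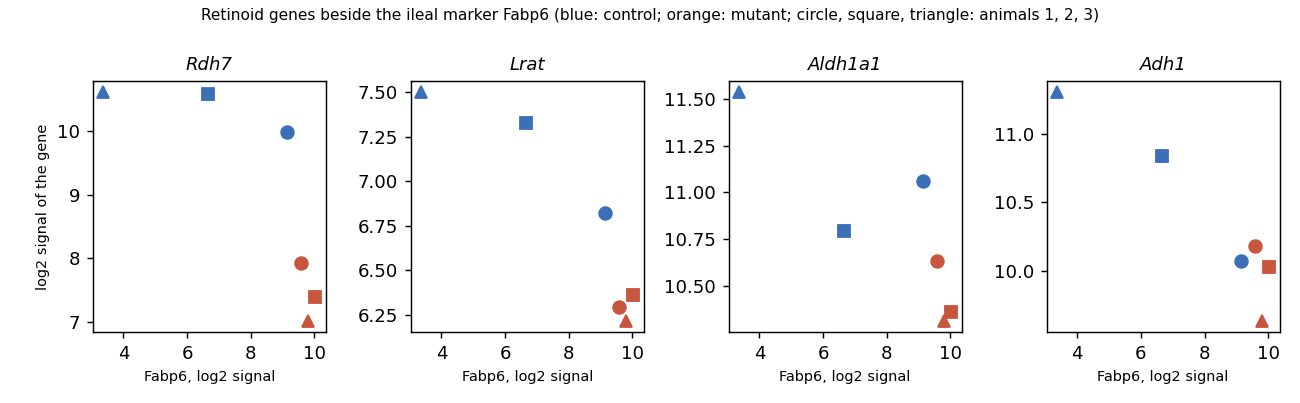
Log2 signal of Rdh7, Lrat, Aldh1a1 and Adh1 (vertical axes) against that of the ileal marker Fabp6 (horizontal axis), 1 point per animal, controls in blue and mutants in orange. Fabp6 was lower in every control than in every mutant, with control 1 the nearest at 9.15. Control 1 read 9.99 in Rdh7, 6.82 in Lrat, 11.06 in Aldh1a1 and 10.07 in Adh1.

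Other genes of the pathway were taken from a list of 79, of which 69 were measured. This list too was written with earlier results of these arrays known, so its counts are a description and not independent evidence. Its genes were also brighter, since 11 of the 69 never rose above the array median, beside 5424 of all 18193 genes. In limma's fit 0 of the 69 were called, and at an unadjusted p under 0.05 there were 19 lower (27.5%) and 6 higher (8.70%), beside 6.85% and 5.24% of all genes. All mutants lay below all controls in 15 genes (21.7%) and above them in 6 (8.70%), beside 10.2% and 6.93% of all genes. The median difference was -0.11. Retinol dehydrogenases and retinal reductases were the longest of its groups. Limma called 0 of the 19 measured, 9 lay lower and 1 higher at an unadjusted p under 0.05, shares that over all genes were 6.85% and 5.24%, and the median was -0.18. Of the lower ones, Rdh16 lay under the array median on every array.

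Adh4, an alcohol dehydrogenase active on retinol, read 4.62, 5.80 and 5.87 in controls and 3.84, 3.86 and 3.76 in mutants. The mutant readings were at background, at or under 3.86, so its difference of -1.62 ± 0.30 SE has an uncertain size (limma's adjusted p = 0.0747, and 0.00278 without control 1). Rdh5, an 11-cis retinol dehydrogenase best known from the eye, differed by -0.79 ± 0.15 SE from similarly low control readings of 4.41 to 4.76 (limma's adjusted p = 0.0798). Hsd17b6, a related hydroxysteroid and retinol oxidising enzyme, differed by -0.57 ± 0.13 SE (-0.25 when its probe sets were averaged), and Retsat, which saturates retinol, by -0.70 ± 0.18 SE. Rdh9, a close relative of Rdh7, read 9.52, 9.85 and 9.77 in controls and 9.25, 9.24 and 8.72 in mutants, a difference of -0.64 ± 0.17 SE (limma's adjusted p = 0.172). The name of the Rdh9 probe set marks probes that other transcripts may share, and whether it also reads Rdh7 was not tested. Akr1b8, an aldo-keto reductase that can reduce retinal, lay the other way at 6.63, 6.35 and 6.42 in controls and 7.37, 7.01 and 7.64 in mutants, a difference of 0.87 ± 0.17 SE (limma's adjusted p = 0.0798). Rdh10, a main retinol dehydrogenase of the embryo, differed by 0.34 ± 0.27 SE with mutant 3 at 9.61 and all other arrays at 8.45 to 8.73.

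**Figure D4:**
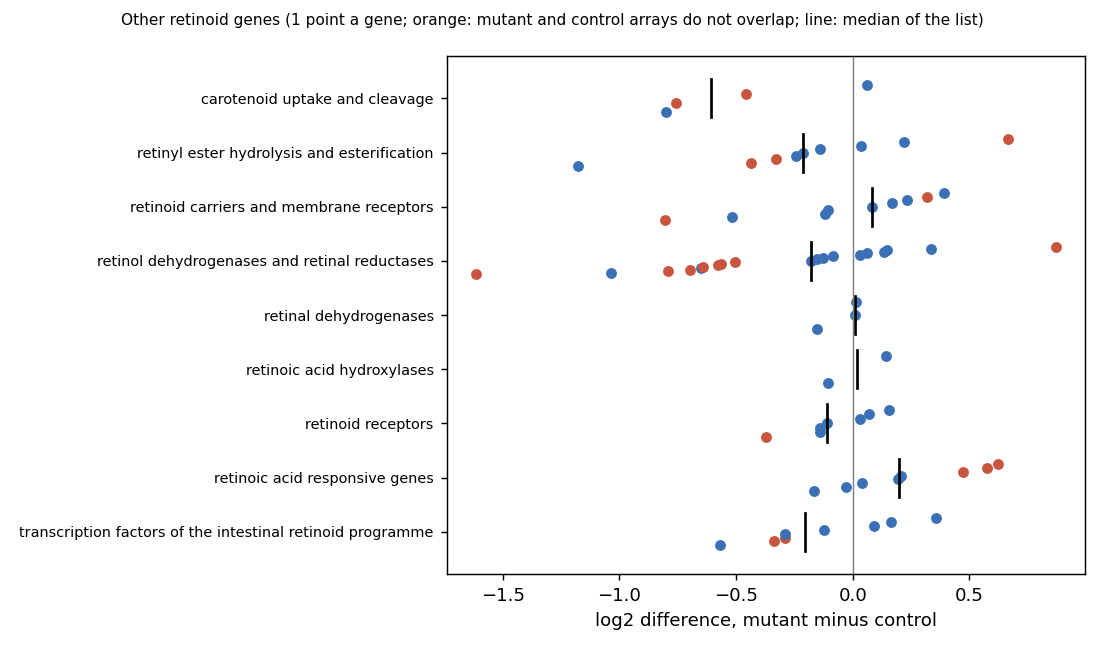
Log2 difference, mutant minus control (horizontal axis), of the 69 other retinoid genes by function, with a vertical line at each list's median and orange points where the arrays of the 2 groups do not overlap. Orange points lie below 0 in 15 of the 69 genes (21.7%) and above in 6 (8.70%), beside 10.2% and 6.93% of all genes. Those among retinol dehydrogenases and reductases lie below 0 in 7 genes and above in 1. Those among retinoic acid responsive genes lie above 0 in 3, and no gene had an adjusted p under 0.05.

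Among 9 measured genes of retinyl ester hydrolysis and esterification limma called 0, and at an unadjusted p under 0.05 there were 3 lower and 1 higher, where 6.85% and 5.24% of all genes lay. Of the lower ones, Ces1g lay under the array median on every array. Plb1, the brush border phospholipase B that acts as a retinyl ester hydrolase, read 11.01, 11.55 and 9.62 in controls and 10.06, 9.30 and 9.28 in mutants, and control 3 overlapped the mutants (difference -1.18 ± 0.45 SE, limma's adjusted p = 0.346, and -0.77 without control 2). Ces2a, a carboxylesterase, lay higher in every mutant at 10.70, 10.59 and 10.45 against 9.83, 10.01 and 9.91 in controls (difference 0.66 ± 0.11 SE, limma's adjusted p = 0.0521). Its adjusted p over the alternatives ran from 0.0300 to 0.999.

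Carriers and membrane receptors of retinoids numbered 9 measured, of which limma called 0. At an unadjusted p under 0.05, 1 was lower and 1 higher, beside 6.85% and 5.24% of all genes. Ttr, transthyretin, the plasma partner of the retinol carrier Rbp4, gave readings that depended on the probe set. Its brightest probe set read 5.70, 5.98 and 5.91 in controls and 5.23, 4.78 and 5.15 in mutants (difference -0.80 ± 0.14 SE, limma's adjusted p = 0.0702). The next read 5.90, 6.15 and 5.53 in controls and 3.30, 3.54 and 3.19 in mutants, and fell by 2.51 (limma's adjusted p = 0.00236 over all probe sets). Both had a control mean of 5.86, so the first was chosen for its higher mutant mean, 5.06 against 3.34. The remaining ones fell by 2.24 and 2.25 (limma's adjusted p = 0.00525 and 0.000875 over all probe sets). The mutant readings of these 3 probe sets lay under the array median, so the size of their falls is uncertain. All 4 separated the groups without overlap, and when its probe sets were averaged Ttr passed over all genes at -1.95 (limma's adjusted p = 0.00175). The 3 with the larger falls are of the kinds whose names mark probes that other transcripts may share. Liver markers, 3 of 4 measured and Ttr among them, averaged 4.46 to 4.63 in controls and 3.94 to 4.24 in mutants, with Alb under the array median on every array. Stra6l, a receptor for retinol bound to Rbp4, differed by 0.39 ± 0.14 SE (limma's adjusted p = 0.322).

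**Figure D5:**
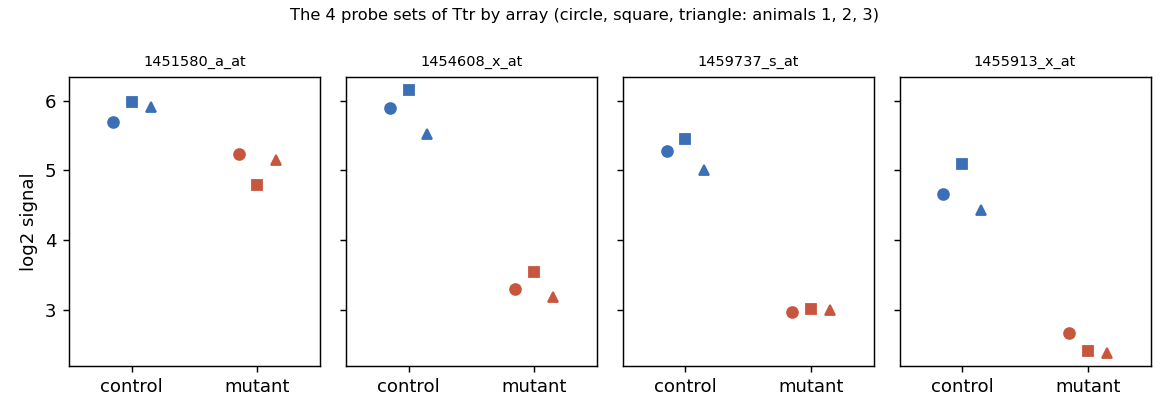
Log2 signal of the 4 Ttr probe sets (shared vertical axis, brightest mean at the left) by group, with controls in blue and mutants in orange and 1 point per animal. Control values lie between 4.44 and 6.15 in all 4, and mutants drop to 3.54 or less in all but the brightest.

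Retinal dehydrogenases other than the members were close to level. Aldh1a3 differed by 0.01 ± 0.17 SE and Aldh1a7, a close relative of Aldh1a1, by -0.15 ± 0.21 SE, and in limma 0 of the 3 measured had an unadjusted p under 0.05. The hydroxylases that clear retinoic acid, Cyp26a1 and Cyp26b1, differed by -0.11 ± 0.18 SE and 0.14 ± 0.13 SE. Cyp26a1 stayed near the array median, at 3.33 to 4.03. Of the 7 retinoid receptors measured limma called 0, and 1 was lower at an unadjusted p under 0.05, beside 6.85% of all genes. It was Rxra, the obligate partner of many nuclear receptors, at -0.37 ± 0.15 SE. That difference was -0.16 when its probe sets were averaged and -0.226 without mutant 3. Rarb, a classic target of retinoic acid, lay under the array median on every array.

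Of the 8 retinoic acid responsive genes measured limma called 0. At an unadjusted p under 0.05 there were 3 higher and 0 lower, beside 5.24% and 6.85% of all genes, and the median was 0.20. Tgm2, tissue transglutaminase, read 10.20, 10.25 and 10.31 in controls and 10.79, 10.67 and 11.03 in mutants (difference 0.58 ± 0.12 SE, limma's adjusted p = 0.0961). Itgb7 and Ccr9, gut homing receptor genes that retinoic acid induces in lymphocytes, differed by 0.62 ± 0.13 SE and 0.47 ± 0.16 SE (limma's adjusted p = 0.0912 and 0.280). Ccr9 differed by 0.17 when its probe sets were averaged, and 1 of them lay lower in the mutants, at -0.19, from readings under the array median. Itgb7 and Ccr9 are lymphocyte genes, and whether the number of lymphocytes or their expression differed cannot be told apart here. Rarres2, Hoxa5 and Nr2f2, the brightest of this list after Tgm2, overlapped between the groups. They differed by 0.04 ± 0.18 SE, 0.19 ± 0.12 SE (-0.12 on the other Hoxa5 probe set) and -0.17 ± 0.13 SE. The names of the brightest Tgm2, Ccr9, Rarres2 and Hoxa5 probe sets mark probes that other transcripts may share. Among 8 measured transcription factors of the intestinal programme limma called 0. At an unadjusted p under 0.05 there were 2, both lower, beside 6.85% of all genes lower and 5.24% higher. Gata4, a factor of the proximal small intestine, and its relative Gata6 differed by -0.34 ± 0.10 SE and -0.29 ± 0.11 SE with no overlap. Cdx1 and Cdx2, also bright in this list, differed by 0.09 ± 0.14 SE and 0.36 ± 0.20 SE, and their groups overlapped.

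Genes whose profile over the 6 arrays was most like that of Rdh7 were sought among the 9095 other genes with a mean above that of the median gene. The 5 with the highest Pearson r were Pisd (0.998), Usf3 (0.998), Mcoln2 (0.994), Trp53i13 (0.992) and Ttc13 (0.992). Mcoln2, a lysosomal cation channel gene, fell 3.23-fold (limma's adjusted p = 0.00533), and Pisd and Trp53i13 fell 1.52-fold and 1.70-fold. Bco1 had the largest moderated t of the other members, and its closest genes were Srp14, Flot2, Erp29, Pdia5 and Arhgef10l (r from 0.987 to 0.993), none of which passed the test. With 6 arrays in 2 groups such values mostly restate the gap between the groups, and they are given with no test.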

How the data were processed

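Total RNA of the distal jejunum of 3 control and 3 mutant mice was measured on Affymetrix arrays, 1 per animal, per the labels. The values the authors deposited are log2 signals, 1 per probe set, with the scale inferred from their range (1.80 to 14.5). How background correction, summary and normalisation were done is a point not given in the sources used here. Array medians differed by less than 0.1, so values were used as deposited. Of 45101 probe sets, 64 controls were left out. The platform annotation gave 1 symbol for 34945, several for 932 and none for 9160, and 34741 of those with 1 symbol were found in RefSeq (GRCm38.p6). Each of 18193 genes was read from its brightest probe set with 1 symbol.

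Mutants were set against controls in a two-sided test with R 4.3.3 and limma 3.58.1 (functions lmFit and eBayes). The model held group alone, and p-values were adjusted over all genes by Benjamini-Hochberg. A gene was called at an adjusted p under 0.05. Probe sets other than the chosen one were read from a fit over all 45037 probe sets. The fit was tested on simulated data. P-values rest on the spread between animals, and the number of arrays limits the precision.

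The members and the lists of pathway and marker genes were chosen with earlier results of these data known. Named were the members, Hnf4a, and the 5 genes most like Rdh7 and Bco1. Each pathway list was to give up to 4 genes with the smallest p and up to 4 with the highest mean. Not all of these were described, and those left out include Adh6a, Adh5, Pnliprp2, Hnf4g and Fabp5, whose groups overlapped. Rdh10, Rdh16 and the markers Fabp6, Slc10a2 and Onecut2 were named after their values were seen. Alternatives covered normalisation, low values, probe sets, the variance model, array weights, the replicate number as a block, Y-linked expression, thresholds and left-out arrays. A covariate for gut position was added after the data were seen. Of the listed pathway genes, 10 were not analysed here.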

Additional observations from a re-analysis of the deposited data

How the results depend on the processing

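Over all genes 96 changed. The count was 2 with the floor at the 20th percentile, 150 with array weights, 2 with no moderation of the variance, 196 with the Y-linked covariate, 4 without control 3 and mutant 2 together, 20 at an adjusted p under 0.01, 248 at one under 0.10, 2 with the ileum and colon covariate, and 22 to 96 with 1 array left out. Of the members, 1 (Rdh7) passed, against 0 with the floor, with no moderation, without both arrays or with the ileum and colon covariate, 2 with array weights, 3 with the Y-linked covariate or at 0.10, and 1 to 2 with 1 array left out. Of the other pathway genes 0 passed, against 2 with the mean of probe sets, 1 with the probe set of largest variance, 1 with trend and robust fitting, 3 with array weights, 6 with the Y-linked covariate, 7 at 0.10, and 0 to 1 with 1 array left out. The causes were not tested, though fewer arrays give less power and the ileum and colon covariate does not overlap between the groups. With the replicate number as a block 62 genes and 1 member changed. Same-numbered arrays correlated at 0.07, 0.07 and -0.02 in their deviations and control 3 was closest to mutant 2, so the numbers were not taken as pairs.

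Rdh7, Lrat, Aldh1a1 and Bco1 kept their direction under every alternative run. With 1 array left out, signs turned for Aldh1a2 (-0.154 to 0.0466, with 0.0051 without control 2), Rbp2 (-0.544 to 0.0027), Dhrs3 (-0.412 to 0.0661) and Scarb1 (-0.11 to 0.176). With the ileum and colon covariate they turned for Aldh1a2 (0.20), Rbp2 (0.0527), Dhrs3 (0.22), Adh1 (0.36), Isx (-0.16) and Bco2 (0.0216), and Scarb1 turned to -0.16 with the probe set of largest variance and -0.10 without control 3 and mutant 2. Signal close to background limits Bco1, Adh4, Rdh5 and Ttr.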
